A study of Mus musculus with 32 samples.

Results

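The collagen genes are the genes of the matrix whose symbol is Col, a number, the letter a and a number, with at least 10 UMIs over all cells. UMIs (unique molecular identifiers) each count 1 captured mRNA molecule. Of 27998 genes in the matrix, 44 had such a symbol and 39 passed the minimum, against 16351 genes of any kind that passed it. Just inside the minimum lay Col17a1 with 11 UMIs and Col14a1 with 12 UMIs. Just outside it lay Col6a4, Col19a1 and Col28a1 with 5 UMIs each, followed by Col6a6 with 1 and Col10a1 with 0.

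The cells came from the median eminence (ME), the floor of the third ventricle of the hypothalamus, of C57B/L6 mice aged 40 to 47 days. Of these mice, 5 were fasted overnight (16 h) and 5 had food again for 1 h following such a fast, so that every animal had been fasted. The ME of the 5 animals of a condition was pooled, dissociated with papain, sorted for live nucleated cells and split over 2 libraries per condition (10x 3′ chemistry). The file holds 5982 cells with barcodes numbered 1 to 4, which the labels do not tie to a library or to a condition, so fasted cells could not be told from refed cells. All cells therefore counted as a single sample (n = 1), the conditions were not compared and no test was possible.

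Collagens are secreted or membrane-bound proteins of 3 chains wound around each other, and each chain has a gene of its own. The fibrillar types (I, III and V among them) form the load-bearing fibrils of connective tissue, type IV forms the sheet of the basement membrane around vessels, type VI forms beaded filaments, and the FACIT collagens sit on fibril surfaces. In the brain, fibrillar collagens are known mainly from the meninges and the sheaths of larger vessels, where fibroblast-like vascular and leptomeningeal cells (VLMCs) lie, whereas the neural tissue itself contains little fibrillar collagen.

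The matrix held 29288898 UMIs, with a median of 3837 per cell. Clustering with every collagen gene left out, so that no cluster rests on a collagen gene, gave 25 clusters. Of these, 21 were named from marker lists as 13 cell types and 4 stayed unnamed. A name ending in "-like" is such a type: VLMC-like, mural-like (cells of the vessel wall), endothelial-like, ependymocyte-like and tanycyte-like (cells that line the ventricle), astrocyte-like, OPC-like (oligodendrocyte progenitors), diffOPC-like (differentiating progenitors), MOL-like (mature oligodendrocytes), neuron-like, pars tuberalis-like, microglia-like and macrophage-like. The unnamed clusters are called by a leading gene: Mgp (40 cells), Mia (365 cells), Fxyd1 (190 cells) and Ccl5 (19 cells). The defining markers of all 13 types but OPC-like were each highest in the type they stand for, and for OPC-like cells 5 of 6 were. The clusters were named by these same markers, so this is no check on the names. Levels are UMIs per 1000000 UMIs of a type (CPM), with exact 95% Poisson intervals that cover counting error only. Since each mRNA gives 1 tag at its 3′ end, CPM is not divided by gene length, and CPM values of different genes are comparable only as counts of captured tags.

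Summed over the 39 genes, VLMC-like cells had the highest level of collagen mRNA, 5303 CPM, which is 0.530% of their UMIs. The Mgp-led unnamed cluster followed at 2000 CPM, then diffOPC-like cells at 969 CPM, tanycyte-like cells at 868 CPM, mural-like cells at 734 CPM, the Mia-led unnamed cluster at 615 CPM and endothelial-like cells at 535 CPM. Macrophage-like cells were lowest of the named types at 58.1 CPM. VLMC-like cells made up 4.48% of the clustered cells and held 29.1% (95% exact binomial interval 28.4 to 29.9%) of the 14791 collagen UMIs. Tanycyte-like cells, 18.1% of the cells, held 26.6%, and these were mostly of 2 transmembrane genes described below.

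A gene was given a source cell type where its highest named type had at least 10 of its UMIs, at least 2 times the CPM of the next named type, and a Poisson interval above that of the next type. By this rule 24 of the 39 collagen genes (61.5%) had a source, against 17.4% of all genes with at least 10 UMIs. The median ratio of the highest to the next type was 3.18 for the collagen genes and 1.37 for all genes. Among the 25 collagen genes with at least 100 UMIs, 18 had a source, against 18.2% of all genes with that many UMIs. VLMC-like cells were the source of 16 collagen genes (1.22% of all genes), diffOPC-like cells of 3 (1.03%), ependymocyte-like cells of 2 (3.74%), tanycyte-like cells of 2 (0.41%) and microglia-like cells of 1 (0.917%). For 21 of the 39 the highest named type was VLMC-like, against 5.37% of all genes. When the 4 unnamed clusters were counted as further types, an alternative added after the data were seen, 16 genes had a source and 9 of them had VLMC-like cells as source. The share of all genes was not taken under this alternative, so the 17.4% and 1.22% do not apply to these counts. Of the 8 genes that lost their source, the interval of the Mgp-led cluster overlapped that of the source for Col5a1, Col6a1, Col6a2, Col6a3, Col8a2 and Col12a1, and the Mia-led cluster came within 2 times of it for Col5a2 and Col23a1.

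**Figure D1:**
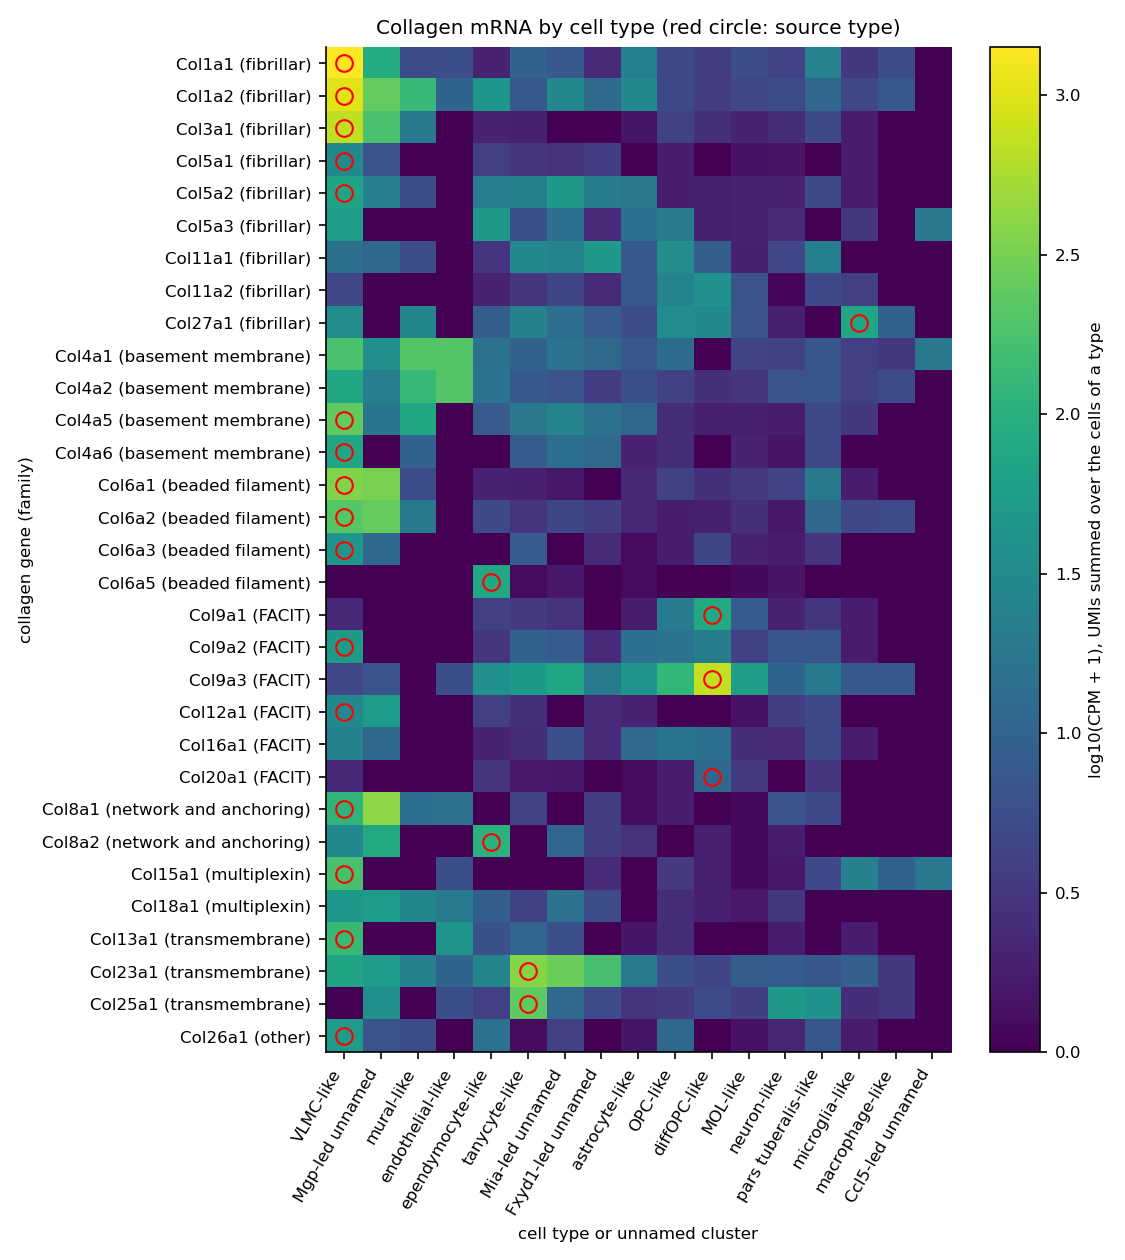
Level of each collagen gene with at least 100 UMIs or a source type (rows, with family) in each cell type and unnamed cluster (columns), as log10 of CPM + 1, with a red circle on the source type. VLMC-like cells carry 16 of the 24 circles, and the 8 others lie in the diffOPC-like, ependymocyte-like, tanycyte-like and microglia-like columns.

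To show where these genes start, 5 promoter windows are printed: Col1a2 and Col3a1, both with VLMC-like cells as source, Col4a1, which starts head to head with Col4a2, and the tanycyte-like genes Col23a1 and Col25a1. The windows run from 250 bases before to 50 bases after the RefSeq start (build GRCm38.p6), 5′ to 3′ on the strand of the gene. Capitals mark TATAAA (the TATA box), CCAAT and GGGCGG (a GC box), each searched on both strands, so that a match on the other strand appears as its reverse complement.
Col1a2 (chr6:4505368-4505667, plus strand): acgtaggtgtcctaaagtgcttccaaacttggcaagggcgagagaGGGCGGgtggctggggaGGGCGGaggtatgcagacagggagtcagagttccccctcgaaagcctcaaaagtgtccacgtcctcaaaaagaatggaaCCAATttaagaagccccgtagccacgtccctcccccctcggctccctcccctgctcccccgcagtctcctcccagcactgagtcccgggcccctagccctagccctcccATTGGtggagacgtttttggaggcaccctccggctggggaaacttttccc
Col3a1 (chr1:45311288-45311587, plus strand): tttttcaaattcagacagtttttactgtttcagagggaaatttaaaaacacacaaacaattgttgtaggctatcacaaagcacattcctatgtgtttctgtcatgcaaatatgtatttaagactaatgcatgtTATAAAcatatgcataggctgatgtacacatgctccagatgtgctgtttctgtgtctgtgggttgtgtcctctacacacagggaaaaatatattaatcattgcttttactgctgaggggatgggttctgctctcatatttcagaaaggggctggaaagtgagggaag
Col4a1 (chr8:11312777-11313076, minus strand): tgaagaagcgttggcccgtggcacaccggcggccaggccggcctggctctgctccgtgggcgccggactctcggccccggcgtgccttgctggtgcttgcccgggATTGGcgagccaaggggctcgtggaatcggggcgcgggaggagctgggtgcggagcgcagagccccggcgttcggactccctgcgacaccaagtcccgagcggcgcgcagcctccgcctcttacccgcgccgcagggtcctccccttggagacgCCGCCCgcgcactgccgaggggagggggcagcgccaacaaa
Col23a1 (chr11:51289670-51289969, plus strand): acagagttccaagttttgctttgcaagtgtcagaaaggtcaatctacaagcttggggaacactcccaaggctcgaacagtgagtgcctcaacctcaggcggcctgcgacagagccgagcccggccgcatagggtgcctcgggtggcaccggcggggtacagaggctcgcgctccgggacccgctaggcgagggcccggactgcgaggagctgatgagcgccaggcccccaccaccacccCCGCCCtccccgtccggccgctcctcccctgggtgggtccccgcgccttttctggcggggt
Col25a1 (chr3:130180595-130180894, plus strand): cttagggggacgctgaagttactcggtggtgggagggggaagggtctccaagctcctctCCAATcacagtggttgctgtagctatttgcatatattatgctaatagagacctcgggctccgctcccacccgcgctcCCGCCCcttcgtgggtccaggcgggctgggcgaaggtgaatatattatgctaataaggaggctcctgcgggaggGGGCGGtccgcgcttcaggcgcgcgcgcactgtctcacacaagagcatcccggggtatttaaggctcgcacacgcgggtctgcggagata

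Of the 39 collagen genes, 30 had a RefSeq promoter window, 33 windows in all. TATAAA was present in 4 of these windows (12.1%) and in 13.6% of the 32851 windows of the table, and CCAAT in 12 (36.4%) against 37.4%. GGGCGG was present in 21 (63.6%) against 35.7%, including 8 of the 13 windows of genes with VLMC-like cells as source. These matches are letters in a window and were not linked to any readout. The GENCODE models of Col1a2 and Col25a1 begin upstream of the RefSeq starts used for the windows. The windows of Col4a1 and Col4a2 share 78 bases.

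The fibrillar family had 11 members, and VLMC-like cells held 56.0% of its 4814 UMIs. The major fibrillar chains were those of types I and III. In barcode numbers 1 to 4, Col1a1, the alpha-1 chain of type I (chromosome 11, 94936224 to 94953042), stood at 1569, 1551, 1281 and 1260 CPM in VLMC-like cells. Over the 4 numbers together it reached 1413 CPM (1333 to 1497), 59.3 times the next named type, pars tuberalis-like cells at 23.8 CPM (12.3 to 41.6). Its partner chain Col1a2 (chromosome 6, 4504814 to 4541544) stood at 986, 1055, 996 and 969 CPM in VLMC-like cells, and at 1002 CPM in all, 7.77 times the 129 CPM (86.3 to 185) of mural-like cells. Col3a1, the chain of type III (chromosome 1, 45311538 to 45349706), stood at 736, 716, 683 and 657 CPM, and at 698 CPM in all against 17.8 CPM (4.85 to 45.5) in mural-like cells. For these 3 genes the barcode numbers of VLMC-like cells lay close together, far above the interval of the next named type. The Mgp-led unnamed cluster, which the rule does not compare, lay above that next named type for all 3, though below VLMC-like cells. It was at 85.3 CPM (48.8 to 139) for Col1a1, 245 CPM (180 to 327) for Col1a2 and 176 CPM (121 to 247) for Col3a1.

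At the level of cells, Col1a1 was detected in 256 of 268 VLMC-like cells (95.5%), Col1a2 in 87.3% and Col3a1 in 79.5%. In microglia-like cells, which are not known to make these chains, the shares were 0.746%, 1.24% and 0.249%, at a median depth of 3080 UMIs per cell against 2888 in VLMC-like cells. After thinning each cell to 1000 UMIs the VLMC-like shares were 71.3%, 62.7% and 47.01%, and those of microglia-like cells 0.249%, 0.249% and 0 of 402 cells (3 counts would be 0.746% of cells with a UMI at that depth). Both chains of type I were detected together in 224 VLMC-like cells, Col1a1 alone in 32, Col1a2 alone in 10 and neither in 2. Col1a1 made up 58.5% (56.3 to 60.7%) of the type I chain UMIs of VLMC-like cells.

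Outside VLMC-like cells the interval of this share overlapped that of VLMC-like cells in some types and lay below it in others. The Col1a1 share was 58.0% (45.5 to 69.8%) in tanycyte-like, 55.3% (38.3 to 71.4%) in MOL-like and 45.1% (31.1 to 59.7%) in neuron-like cells. These intervals overlap that of VLMC-like cells, but they are wide and do not show that the share was the same. In mural-like cells 1 UMI of Col1a1 stood beside 29 of Col1a2, a Col1a1 share of 3.33% (0.0844 to 17.2%), and in ependymocyte-like cells 1 stood beside 44, a share of 2.22% (0.0563 to 11.8%). In the Mia-led unnamed cluster the share was 19.0% (9.87 to 31.4%) and in the Mgp-led cluster 25.8% (15.5 to 38.5%). These last 4 intervals lie below that of VLMC-like cells. So does the interval of astrocyte-like cells, with 85 UMIs of Col1a1 and 113 of Col1a2, a share of 42.9% (35.9 to 50.1%). Col1a2 in ependymocyte-like cells was 43.5, 50.9, 39.8 and 44.3 CPM over the barcode numbers, and 40 of 202 cells (19.8%) had a UMI. After thinning to 1000 UMIs, 4.46% of ependymocyte-like cells had one.

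Astrocyte-like cells carried both type I chains at a low level and almost no type III. Col1a1 stood at 22.7, 16.8, 21.4 and 26.0 CPM over the barcode numbers, Col1a2 at 25.4, 29.0, 39.0 and 23.9 CPM, and Col3a1 at 0.509 CPM (2 UMIs). Of Col1a1 and Col3a1 together, Col3a1 was 2.30% (0.280 to 8.06%) in astrocyte-like cells and 33.1% (30.8 to 35.3%) in VLMC-like cells. The 85 Col1a1 UMIs came from 81 of 1421 cells with at most 2 in a cell, and only 6 cells had both chains. In MOL-like cells, by contrast, 11 of 21 Col1a1 UMIs came from 1 cell, and in pars tuberalis-like cells 7 of 12.

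**Figure D2:**
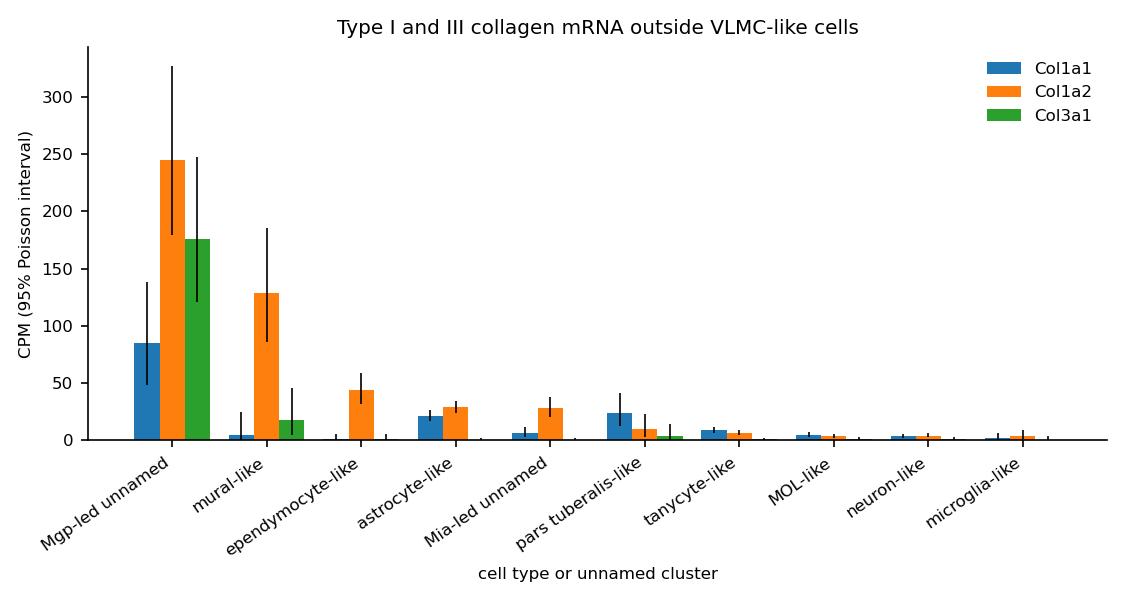
Levels of Col1a1, Col1a2 and Col3a1 in CPM outside VLMC-like cells, with 95% Poisson intervals as error bars. Col1a2 stands without a matching level of Col1a1 in mural-like and ependymocyte-like cells, while Col3a1 is 17.8 CPM in mural-like cells and at most 3.97 CPM in any other named type.

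The minor fibrillar chains, which join fibrils of types I and II and are known to limit their width, were lower and more widely spread. Col5a1 was 15.3, 39.3, 31.3 and 31.8 CPM in VLMC-like cells over the barcode numbers, against 3 UMIs (3.003 CPM) in ependymocyte-like cells. Col5a2 was 51.1, 63.8, 75.9 and 79.4 CPM in VLMC-like cells, and the next named type, tanycyte-like cells, was at 22.3 CPM. The Mia-led cluster, which the rule does not compare, stood at 49.3 CPM (39.2 to 61.2), and its interval overlapped that of VLMC-like cells (51.0 to 88.1). Only 15.2% of the Col5a2 UMIs came from VLMC-like cells. Col5a3 had no source, with 54.2 CPM in VLMC-like and 49.1 CPM in ependymocyte-like cells.

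Col11a1 and Col11a2, the chains of the cartilage-type fibril XI, had no source either. Col11a1 was 34.7 CPM (25.2 to 46.6) in OPC-like cells, 31.2 CPM (26.2 to 36.7) in tanycyte-like cells and 50.1 CPM (35.1 to 69.4) in the Fxyd1-led cluster, all overlapping. Col11a2 was 37.9 CPM (27.4 to 51.0) in diffOPC-like and 24.5 CPM (16.6 to 34.7) in OPC-like cells. Col2a1, the main chain of cartilage fibrils, had 20 UMIs, each in a different cell. Col24a1 had 42 UMIs, of which 26 were in neuron-like cells, with up to 6 in 1 cell. Its level was highest in OPC-like cells at 7.10 CPM (9 UMIs), against 3.93 CPM in neuron-like cells, with no source.

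Col27a1, a fibrillar chain that forms thin fibrils in cartilage, was the 1 collagen gene with microglia-like cells as source. It stood at 57.6, 67.6, 96.2 and 92.6 CPM there over the barcode numbers, and at 73.2 CPM (59.4 to 89.2) in all, against 34.5 CPM (22.9 to 49.8) in VLMC-like cells and 33.1 CPM (23.9 to 44.8) in OPC-like cells. The ratio of 2.12 lies just past the minimum of 2, and only 24.6% of its UMIs were in microglia-like cells. Without barcode number 3, and after thinning to 1000 UMIs, Col27a1 had no source.

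Type IV, the sheet-forming collagen of basement membranes, has 6 chains encoded in 3 head-to-head gene pairs. Of these chains only Col4a5 and Col4a6 had a source. Col4a1 and Col4a2 on chromosome 8 overlap by 22 bases at their starts, and together they encode the form of type IV found in nearly all basement membranes. Neither had a source. Col4a1 was 205 CPM (149 to 275) in endothelial-like, 200.1 CPM (146 to 268) in mural-like and 176 CPM (148 to 207) in VLMC-like cells, and the order of these levels is not resolved. Over the barcode numbers endothelial-like cells were at 277, 214, 60.9 and 281 CPM, mural-like cells at 357, 172, 101 and 181 CPM, and VLMC-like cells at 194, 201, 116 and 201 CPM. In each of these 3 types barcode number 3 was lowest, with 19 endothelial-like, 19 mural-like and 72 VLMC-like cells behind it.

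Col4a2 was 205 CPM (149 to 275) among endothelial-like, 129 CPM (86.3 to 185) among mural-like and 76.3 CPM (58.5 to 97.9) among VLMC-like cells. The interval of endothelial-like cells lies above that of VLMC-like cells and overlaps that of mural-like cells. Col4a1 was 69.8% (63.0 to 76.0%) of the UMIs of this pair in VLMC-like cells and 50% (39.2 to 60.9%) in endothelial-like cells, with mural-like cells between at 60.8% (48.8 to 72.0%). Both genes were near background in microglia-like cells, at 2.99 CPM each.

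Mural-like cells fell into 3 sub-clusters, again without collagen genes. Sub-cluster 2 (29 cells) carried the pericyte list, at 28270 CPM summed over 5 genes against 4872 and 205 CPM in the others, whereas sub-clusters 1 and 3 carried the smooth muscle list. Col4a1 was 420 CPM (269 to 625) in sub-cluster 2, against 82.4 CPM (37.7 to 156) in sub-cluster 1 and 205 CPM (106 to 358) in sub-cluster 3. The intervals of sub-clusters 1 and 2 did not overlap. Of the 29 cells, 24 carried barcode numbers 1 and 2, and how this bears on the level was not tested.

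Among the 5 sub-clusters of VLMC-like cells, Col4a1 was highest in sub-cluster 2 (74 cells, led by Arg1, Hsd11b1 and Cilp), at 319 CPM (250.2 to 400.1), against 95.6 to 135 CPM in the 4 others. The interval of sub-cluster 5 (61.61 to 255.8 CPM) overlaps it. Col15a1 was 289 CPM (224 to 367) in sub-cluster 2 and 267 CPM (174 to 391) in sub-cluster 4, against 129 CPM or less elsewhere. Its interval in sub-cluster 1 (85.65 to 186.3 CPM) overlaps that of sub-cluster 4. Col4a5 was 442 CPM (320 to 595) in sub-cluster 4 (29 cells, led by Fos, Junb and Socs3) and 314 CPM (246 to 395) in sub-cluster 2, whose intervals overlap, against 119.8 to 176 CPM in the others. Of the 29 cells of sub-cluster 4, 25 carried barcode numbers 3 and 4, and the leading genes are early-response genes, so that these levels cannot be told apart from that split. In sub-cluster 5 (14 cells, led by Rbp4, Vtn and Slc6a20a) Col9a2 was 195 CPM (104 to 333) from 13 UMIs, against 5.03 to 69.1 CPM in the others. The Col9a2 interval of sub-cluster 1 (38.65 to 113.9 CPM) overlaps that of sub-cluster 5. Sub-cluster 1 was led by Gm3764 and Itih3, which also lead astrocyte-like clusters, and sub-cluster 3 by Cav2 and Cdkn1a. Type I and III chains were present in all 5 sub-clusters, Col1a1 between 988 and 1744 CPM.

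**Figure D3:**
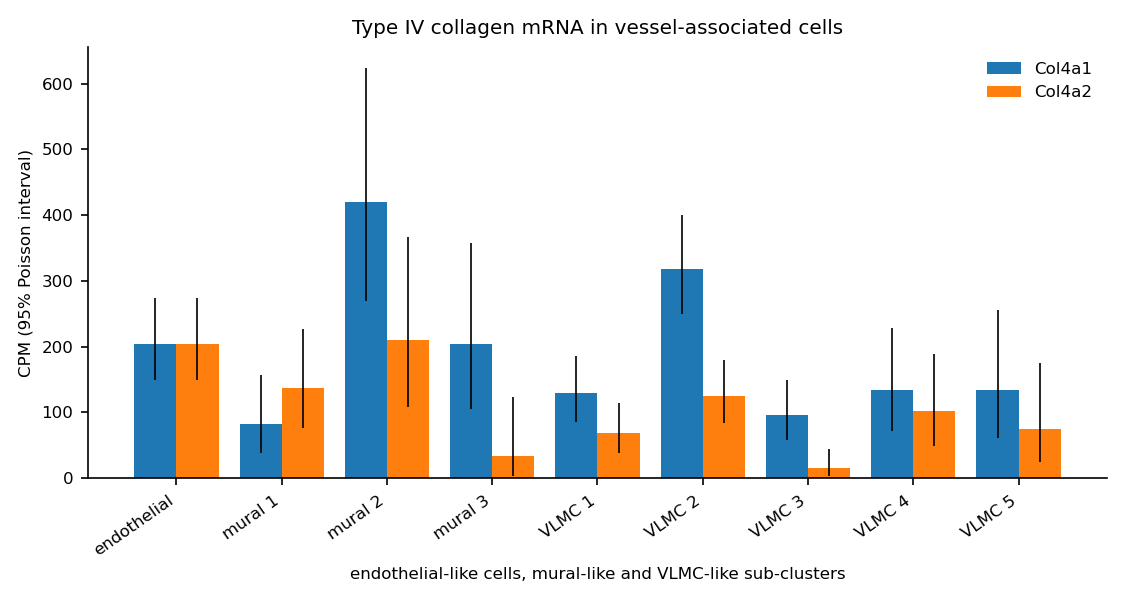
Levels of Col4a1 and Col4a2 in CPM in endothelial-like cells, the 3 mural-like sub-clusters and the 5 VLMC-like sub-clusters, with 95% Poisson intervals. Col4a1 is highest in mural-like sub-cluster 2 (420 CPM) and VLMC-like sub-cluster 2 (319 CPM). Col4a2 is lowest in VLMC-like sub-cluster 3, at 15.1 CPM (3.11 to 44.1) from 3 UMIs. That interval overlaps the one of mural-like sub-cluster 3 (4.14 to 123 CPM), so their order is not resolved.

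In the other type IV pairs each chain had VLMC-like cells as its highest named type. Col4a5 and Col4a6 on the X chromosome start 1308 bases apart, and both had VLMC-like cells as source. Col4a5 was 250.4, 240.4, 232 and 233 CPM in VLMC-like cells over the barcode numbers, and mural-like cells followed at 75.6 CPM (44.0 to 121). Col4a6 was 61.3, 68.7, 80.4 and 68.8 CPM, against 8.89 CPM (2 UMIs) in mural-like cells. In endothelial-like cells Col4a5 had 0 UMIs, which allows up to 14.0 CPM (3 counts of the total of the type). Col4a3 and Col4a4, which start 71 bases apart on chromosome 1, were highest in VLMC-like cells at 46.8 and 39.4 CPM, with no source: the intervals of mural-like cells overlapped for both, and the ratio of Col4a3 was 1.75.

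Type VI forms beaded filaments close to cells, and its chains Col6a1 and Col6a2 had VLMC-like cells as source, as the type I chains had. Col6a1 was 342, 398, 317 and 392 CPM in VLMC-like cells, 20.2 times the 17.9 CPM of pars tuberalis-like cells. Col6a2 was 271, 216, 134 and 228 CPM, 11.8 times the 17.8 CPM of mural-like cells. Col6a3 was 76.7, 34.4, 31.3 and 42.4 CPM, against 7.29 CPM in tanycyte-like cells. The Mgp-led unnamed cluster reached 320 CPM (244 to 412) for Col6a1 and 256 CPM (189 to 339) for Col6a2, overlapping VLMC-like cells for both. Its barcode numbers spread from 77.4 to 474 CPM for Col6a1, with 6 to 14 cells each.

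Col6a5, an additional type VI chain, had a different source. It was 135, 56.5, 50.6 and 73.9 CPM in ependymocyte-like cells over the barcode numbers, where 77 of its 84 UMIs (91.7%) lay, the largest share in a source type among the collagen genes. The next named type, neuron-like cells, was at 0.454 CPM (3 UMIs). In VLMC-like cells Col6a5 had 0 UMIs, which allows up to 3.69 CPM. Of 202 ependymocyte-like cells 58 (28.7%) had a UMI, against 0 of 402 microglia-like cells (3 counts would be 0.746%).

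Col8a1 and Col8a2 encode the short chains of the network-forming type VIII, and they parted between cell types. Col8a2 was 130.3, 56.5, 123 and 94.6 CPM in ependymocyte-like cells, 103 CPM (84.2 to 125) in all, against 28.3 CPM (18.0 to 42.5) in VLMC-like cells. Col8a1 was 169, 68.7, 116 and 90.0 CPM in VLMC-like cells, 111 CPM (89.1 to 136) in all, and had 0 UMIs in ependymocyte-like cells, which allows up to 3.003 CPM. The Mgp-led cluster was above VLMC-like cells for Col8a1, at 405 CPM (319 to 507), and close to ependymocyte-like cells for Col8a2, at 80.0 CPM (44.8 to 132). Within ependymocyte-like cells Col6a5 and Col8a2 were detected together in 25 cells, alone in 33 and 52, and not at all in 92.

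Of the 2608 UMIs of the FACIT family VLMC-like cells held 3.45% and diffOPC-like cells 37.3%. Type IX, a FACIT of 3 chains known from cartilage, made up most of it. Col9a3 (chromosome 2, 180597790 to 180622189) was 843, 612, 705 and 724 CPM in diffOPC-like cells over the barcode numbers. In all it was 731 CPM (682 to 783), 6.10 times the 119.9 CPM (102 to 141) of OPC-like cells, and MOL-like cells followed at 57.2 CPM. Along this lineage the level was highest in the differentiating cells, between progenitors and mature cells. Among the 3 MOL-like clusters Col9a3 was 144 CPM in the cluster led by Mag, and 37.4 and 17.7 CPM in those led by Ptgds and Klk6, and 1 MOL-like cell held 29 of the 264 UMIs of the type. It was detected in 118 of 129 diffOPC-like cells (91.5%), 35.1% of OPC-like, 20.7% of MOL-like and 1.74% of microglia-like cells. The median depth of diffOPC-like cells was 8604 UMIs, and after thinning to 1000 UMIs the shares were 51.9%, 11.3%, 4.65% and 0.498%.

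Col9a1 had the same source at a lower level, 70.7, 63.7, 103 and 88.6 CPM over the barcode numbers, against 19.7 CPM (12.8 to 29.1) in OPC-like cells. Every one of the 61 diffOPC-like cells with Col9a1 also had Col9a3, but Col9a3 was in most cells of this type. A further 57 had Col9a3 without Col9a1, and 11 had neither. The share of Col9a1 in the UMIs of both chains was 10.1% (8.21 to 12.2%) in diffOPC-like, 14.1% (9.35 to 20.1%) in OPC-like and 11.1% (7.77 to 15.3%) in MOL-like cells, with overlapping intervals. It was 1.79% (0.370 to 5.13%) in astrocyte-like cells, where Col9a3 was 42.0 CPM. The remaining chain, Col9a2, went with neither: VLMC-like cells were highest at 51.7 CPM (37.3 to 69.9), and diffOPC-like cells followed at 20.3 CPM (12.8 to 30.4). In barcode number 2 Col9a2 was 29.4 CPM in VLMC-like and 34.0 CPM in diffOPC-like cells. Of Col9a2 and Col9a3 together, Col9a2 was 93.3% (81.7 to 98.6%) in VLMC-like cells and 2.70% (1.72 to 4.02%) in diffOPC-like cells.

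The other FACIT genes were sparse. Col12a1, a chain on the surface of type I fibrils, was 29.6 CPM in VLMC-like cells and 3.97 CPM in pars tuberalis-like cells, with the Mgp-led cluster at 53.3 CPM (25.6 to 98.1). Col20a1 had diffOPC-like cells as source with 12 UMIs, 10.6 CPM against 2.38 CPM in MOL-like cells, and 1 barcode number held none. The call was lost under 12 of 18 alternatives, leaving out any 1 barcode number among them. Col16a1 (137 UMIs), Col22a1 (28 UMIs) and Col14a1 (12 UMIs) had no source, and Col16a1 lay between 11.5 and 23.4 CPM in VLMC-like, OPC-like, diffOPC-like and astrocyte-like cells.

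The multiplexins are basement membrane collagens whose ends can be cut off as soluble fragments (endostatin in the case of Col18a1). Col15a1 was 143, 187, 174 and 175 CPM in VLMC-like cells, 7.58 times the 22.4 CPM (15.1 to 32.0) of microglia-like cells, and endothelial-like cells had 1 UMI (4.65 CPM). Col18a1 was 46.8 CPM (33.1 to 64.2) in VLMC-like and 26.7 CPM in mural-like cells (6 UMIs), with no source. Col18a1 overlaps Slc19a1 on the opposite strand by 8825 bases, and its counts were taken as deposited.

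The 4 transmembrane collagens, which stay anchored in the cell surface, had the largest UMI total after the fibrillar genes, 4257, of which tanycyte-like cells held 66.6%. Col13a1 was the exception, with VLMC-like cells as source: 138, 172, 112 and 111 CPM, against 41.9 CPM in endothelial-like cells. Col17a1, known from the attachment of epithelia, had 11 UMIs, 8 of them in the Mgp-led cluster.

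Col23a1 (chromosome 11, 51289920 to 51583918) had 2588 UMIs, the most of any collagen gene. It was 407, 386, 367 and 353 CPM in tanycyte-like cells over the barcode numbers, and 381 CPM (363 to 399) in all, 5.53 times the 68.9 CPM (52.1 to 89.5) of VLMC-like cells. A UMI was found in 72.2% of tanycyte-like cells and 2.74% of microglia-like cells, and in 28.4% and 0.249% after thinning to 1000 UMIs. Unnamed clusters carried it as well: the Mia-led cluster at 284, 271, 290.2 and 263 CPM, and the Fxyd1-led cluster at 159, 230, 146 and 152 CPM. With unnamed clusters counted as types, Col23a1 had no source.

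Col25a1 (chromosome 3, 130131501 to 130599877), whose shed ectodomain is known from amyloid plaques, divided the tanycyte-like cells. It was 236, 273, 261 and 172 CPM over the barcode numbers in all of them, and neuron-like cells followed at 50.7, 54.8, 45.2 and 48.8 CPM. Of the 2 tanycyte-like clusters, the cluster led by Mia, 6330403K07Rik and Frzb (531 cells, the Frzb cluster) held 1058 of the 1066 UMIs. Its level was 391, 481, 458 and 360 CPM, and 61.4% of its cells had a UMI. The cluster led by 6330403K07Rik and Crym, with Kctd14 among its leading genes (548 cells, the Kctd14 cluster), was at 3.64, 5.84, 2.51 and 3.58 CPM, with 8 UMIs, so that the 2 sets of barcode numbers did not overlap. Col23a1 differed less between these clusters, at 452 CPM (426 to 479) and 293 CPM (269.9 to 318). The clusters were made from other genes of the same cells, so this is a description and not a test.

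Neuron-like cells divided for Col25a1 too. The cluster led by Scg2, Avp and Vip (78 cells) was at 142 CPM (112 to 177), with 237, 114, 92.0 and 139.8 CPM over the barcode numbers. The cluster led by Sst (365 cells) was at 49.4 CPM (43.3 to 56.0), and the cluster led by Agrp and Npy (65 cells) at 3.50 CPM (0.954 to 8.97). The intervals of the 3 clusters did not overlap. Col23a1 was between 6.70 and 11.1 CPM in all 3, so that Col23a1 made up 12.9% (9.67 to 16.7%) of the UMIs of both genes in neuron-like cells and 61.8% (59.96 to 63.6%) in tanycyte-like cells. Col25a1 had 0 UMIs in VLMC-like cells, which allows up to 3.69 CPM.

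**Figure D4:**
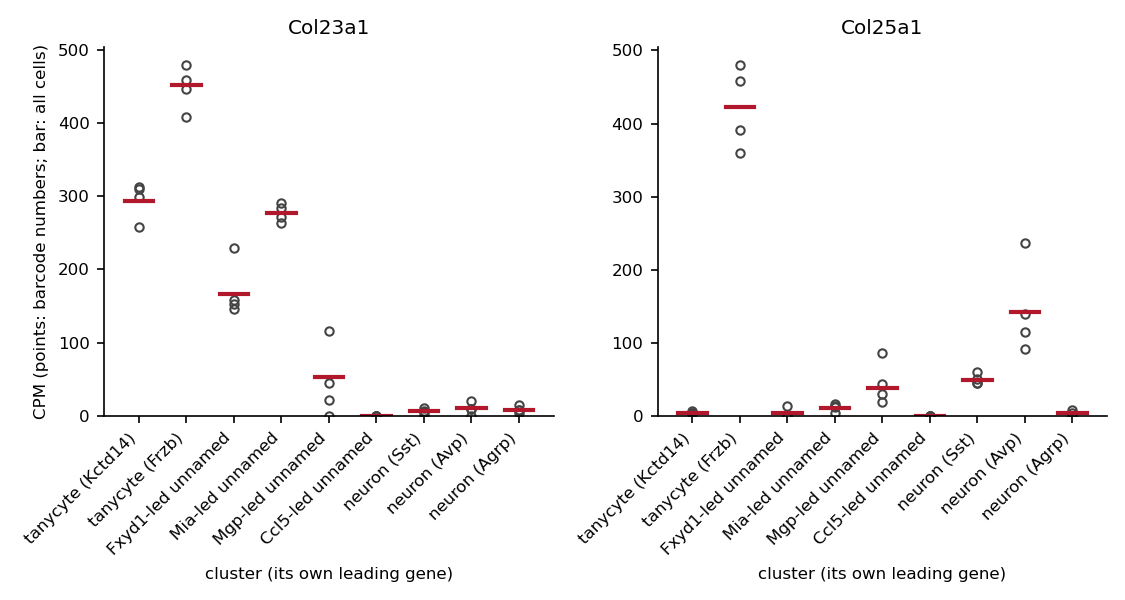
Levels of Col23a1 (left) and Col25a1 (right) in CPM in the tanycyte-like, unnamed and neuron-like clusters, with a point for each barcode number and a red bar for all cells of the cluster. Col25a1 is at 422 CPM in the Frzb cluster of tanycyte-like cells and 3.96 CPM in the Kctd14 cluster, while Col23a1 is at 293 CPM or more in both.

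Col26a1, a small collagen outside these families, was 92.0, 44.2, 31.3 and 53.0 CPM in VLMC-like cells, against 14.0 CPM (7.66 to 23.5) in ependymocyte-like cells. Col7a1, the anchoring fibril chain of epithelia, had 31 UMIs and no source.

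The source type was the highest named type in each of the 4 barcode numbers for 21 of the 24 genes with a source. The 3 exceptions were Col9a2, Col13a1 and Col20a1, each highest in 3 of the 4. The 24 genes were chosen by the sum of these same barcode numbers, so this is a description and not a test. The share over all genes with a source was not taken.

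**Figure D5:**
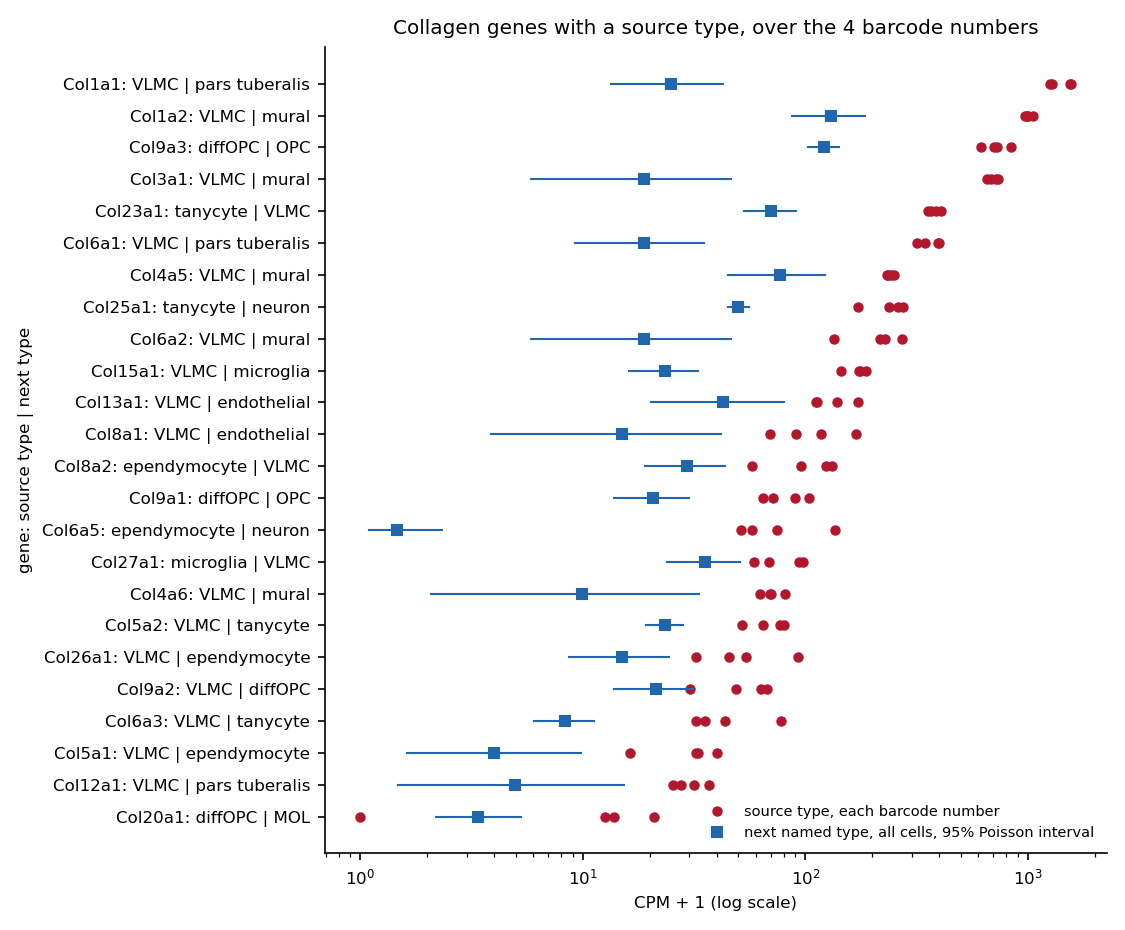
The 24 collagen genes with a source type, ordered by level, with CPM + 1 on a log axis: red points give the source type in each of the 4 barcode numbers and blue squares the next named type over all cells, with its 95% Poisson interval. All red points lie to the right of the blue interval except 1 point each of Col9a2 and Col20a1.

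Collagen chains are modified, folded, trimmed and crosslinked by a set of partner proteins, and 81 of their genes in 8 lists were read the same way. Unlike the collagen genes, these genes were not left out of the clustering. Of the 74 with at least 10 UMIs, 21 had a source, 15 of them VLMC-like cells, against 17.4% of all genes with a source and 1.22% with VLMC-like cells as source. The median ratio of highest to next type was 1.64, against 1.37 for all genes. The counts per list below stand against the same shares, and lists of 5 to 15 genes give coarse ones. From each list up to 4 genes are described, those with most UMIs, and any other gene named below was picked after its values were seen because it completes a count.

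Among the modifying enzymes, 1 of 15 hydroxylase and glycosyltransferase genes had a source, against 17.4% of all genes. Ppib, a folding enzyme of the endoplasmic reticulum that works with the hydroxylases, was 776 CPM in OPC-like and 537 CPM in VLMC-like cells. P4ha1 and P4hb, the subunits of prolyl 4-hydroxylase, were highest in microglia-like cells at 108 CPM and in VLMC-like cells at 88.6 CPM, each within 1.5 times of the next type. P3h4 was highest in MOL-like cells at 125 CPM. The gene with a source was P3h3, at 124 CPM in VLMC-like cells (next type 51.6 CPM). None of the 7 chaperone and export genes had one. Serpinh1, the collagen chaperone HSP47, was 998 CPM in VLMC-like cells, 1.97 times the next type and just under the minimum. Mia2, Sec23a and Mia3, which act in the export of large cargo, were highest in microglia-like, neuron-like and OPC-like cells at 104, 103 and 87.6 CPM.

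Of 6 propeptide processing genes 3 had a source. Pcolce, an enhancer of C-propeptide removal, was 712 CPM in VLMC-like cells (next type 160.0 CPM), and Adamts2, an N-propeptidase, 84.9 CPM there (next type 11.7 CPM). Pcolce2 had MOL-like cells as source at 86.9 CPM, with VLMC-like cells at 1.23 CPM. Bmp1, a C-propeptidase, had no source and was highest in diffOPC-like cells at 39.6 CPM. Of 5 crosslinking genes 1 had a source, Loxl1, a lysyl oxidase, at 278 CPM in VLMC-like cells and 4.65 CPM in the next type. Loxl2 was highest in mural-like cells at 66.7 CPM and the transglutaminase Tgm2 in endothelial-like cells at 112 CPM, both with no source. Loxl3, also with no source, was 13.3 CPM (2.75 to 39.0) in mural-like and 12.5 CPM in astrocyte-like cells, and their order is not resolved.

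Of 12 genes for fibril-binding proteins 8 had a source, 5 of them VLMC-like and 3 of other types, against 17.4% and, for VLMC-like cells, 1.22% of all genes. Sparc, which binds collagens, had the most UMIs of any partner gene (34494) and was highest in astrocyte-like cells at 4181 CPM, with 2462 CPM in VLMC-like cells and no source. Prelp was 345 CPM in VLMC-like and 324 CPM in ependymocyte-like cells. Bgn (biglycan) was 1299 CPM in VLMC-like cells, 4.49 times the next type, and Fbln1 (fibulin 1) 303 CPM there, 4.15 times the next type.

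Of 13 basement membrane partners 3 had a source, all VLMC-like, and the share with any source is near the 17.4% of all genes. These were Lama2, a laminin chain, at 172 CPM, Lamb1 at 160.0 CPM and Hspg2 (perlecan) at 235 CPM. Lamb2 was highest in mural-like cells at 173 CPM, Agrn (agrin) in endothelial-like cells at 69.8 CPM and Lamc1 in VLMC-like cells at 119 CPM, with no source. Of 8 receptor genes 2 had one, Itgb1, the shared chain of collagen-binding integrins, in mural-like cells at 871 CPM and Lair1, an inhibitory collagen receptor of leukocytes, in microglia-like cells at 493 CPM. Ddr1, a collagen-binding receptor kinase, was highest in ependymocyte-like cells at 308 CPM and Itga1 in endothelial-like cells at 112 CPM, with no source.

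Of 8 breakdown genes 3 had a source, all VLMC-like: Mmp2 (gelatinase A) at 539 CPM, its inhibitor family member Timp3 at 1964 CPM, and Ctsk (cathepsin K) at 144 CPM. Timp2 was 726 CPM in VLMC-like cells and 583 CPM in microglia-like cells, and Mmp14 was 171 CPM in VLMC-like cells and 89.3 CPM in the next type, both with no source.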

How the data were processed

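The authors deposited 1 matrix of UMI counts per gene and cell, made with Cell Ranger 2.0 on GRCm38/mm10 per the submitters' processing notes from 32 lane and index records of 4 libraries. The values were whole numbers and were used as deposited. The matrix had 0 unused columns of sample values. Gene symbols came from GENCODE vM21, which named 27645 of 27998 identifiers. The collagen genes, marker lists, partner lists, families and thresholds were chosen with earlier results of these data known.

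Cells were clustered with scanpy 1.11.5 on 2000 variable genes without collagens, 30 principal components, 15 neighbours and Leiden resolution 1. Before that, 3 cells in which haemoglobin took 10% or more of the UMIs were removed, leaving 5979. A cluster took a name where its mean scaled marker level was at least 0.3 and 1.5 times that of any other list, at least 3 markers were 4 times the median cluster (pseudocount 10 CPM), and no other list had more markers among its 10 leading genes. VLMC-like and mural-like cells were split again at resolution 0.5 on 10 components. Scrublet called 50 doublets (0.836%), which were kept. Between barcode numbers, 21 barcodes recurred.

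Levels are summed UMIs per 1000000 with exact Poisson intervals, and shares have Clopper-Pearson intervals, both at 95% and for counting error only. A count of 0 allows up to 3 counts. Collagen genes with at least 100 UMIs or a source were described with their levels, the others by counts, and up to 4 partner genes a list by most UMIs. Depth was 6508038 to 7806887 UMIs per barcode number. The source rule was tested on simulated data. Of the collagen genes, 0 overlapped another gene of the matrix on the same strand and 9 on the other strand, and whether counting used strand is not given in the sources used here. Promoter windows were RefSeq's (GRCm38.p6).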

Additional observations from a re-analysis of the deposited data

How the results depend on the processing

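The number of collagen genes with a source was 24 and stayed between 21 and 26 under all 18 alternatives but 3 (thinning, unnamed clusters as types and a fold of 4), and the number with VLMC-like cells as source was 16. Thinning each cell to 1000 UMIs gave 14 and 10, and the cause was not tested beyond the lower depth itself. Counting unnamed clusters as types, added after the data were seen, gave 16 and 9. A fold of at least 4 gave 17 and 11. K-means with 9 clusters gave 26 and 21, but only VLMC-like, tanycyte-like, ependymocyte-like, astrocyte-like and MOL-like cells kept a name there, so that the other types, diffOPC-like cells included, were not compared. Leaving out each barcode number in turn gave 21 to 23 genes with a source and 15 to 16 with VLMC-like cells. The share of all genes with a source was not taken under any alternative, so these counts have no background beside them. Without barcode number 1 Col26a1, without number 2 Col13a1, and without number 3 Col27a1 and Col12a1 lost their source, and Col20a1 lost it in each of the 4 and under 12 of the 18 alternatives in all. Col1a1, Col1a2, Col3a1, Col4a5, Col4a6, Col6a5, Col9a3, Col15a1 and Col25a1 kept their source under every alternative other than K-means, fold 4 and the 50-UMI minimum, where Col9a3 had none with K-means (its source type being unnamed) and Col4a5 at fold 4.

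The share of collagen UMIs in VLMC-like cells, 29.1%, was 38.8% after thinning and 38.7% as a mean over cells. Both alternatives give each cell the same weight, whereas the 29.1% weights cells by their depth. VLMC-like cells were 4.48% of the clustered cells and held 2.77% of all UMIs, and how far this bears on the difference was not tested. The share was 28.3 to 30.2% when barcode numbers were left out. Median-of-ratios size factors give this share no value. Of 395 levels of 31 genes under the alternatives, 364 stayed within the Poisson interval of the reported level. No paired analysis was possible because the barcodes are not tied to libraries or conditions.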

Other observations

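The Mgp-led unnamed cluster of 40 cells, led also by Fxyd5, Igfbp6 and Ccn3, had the next highest summed collagen level after VLMC-like cells, at 2000 CPM. Col8a1 was 271, 690, 315 and 545 CPM there over barcode numbers 1 to 4 with 9, 6, 14 and 11 cells, and Col1a1 was 85.3 CPM (48.8 to 139) beside 176 CPM (121 to 247) of Col3a1. Of Col1a1 and Col3a1 together, Col3a1 was 67.3% (52.5 to 80.1%) in this cluster and 33.1% (30.8 to 35.3%) in VLMC-like cells.

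Summed over all cells, the collagen level was 532, 557, 484 and 454 CPM in barcode numbers 1 to 4. These numbers were not assigned to a condition.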
